A study of Mus musculus with 6 samples.

Results

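This section describes 10 genes of the interleukin-6 (IL-6) cytokine family in cultured mouse lung fibroblasts, in separate samples without and with exposure to Dickkopf-1 (DKK1). They are the cytokines Il6, Il11, Lif and Clcf1, the receptor chains Il6st, Il6ra, Lifr and Osmr, the transcription factor Stat3, and its feedback inhibitor Socs3, out of 45706 genes in the table. All 10 were found in the table by their Ensembl identifiers, and all 10 passed the filter on low counts, which 14635 genes of the table passed. The genes were chosen by family membership and with the difference between DKK1 and control already known, so that difference is given below as a description, without p-values for these genes. The cells were fibroblasts of wild-type mice, grown out of lungs digested with collagenase and then trypsin, and were purified by a step the labels do not name. The 3 control samples are labelled only as control, with no vehicle named, and the 3 DKK1 samples received recombinant mouse DKK1 protein at 30 ng/ml for 24 hours. Strain, age and the number of animals are not given in the sources used here, and the labels do not say whether the replicates came from separate animals or cultures, so the spread between them may be technical. Replicates are numbered 1 to 3 in both groups.

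Cytokines of the IL-6 family signal through a shared receptor chain, gp130, which Il6st encodes. IL-6 and IL-11 first bind their own receptor chains (encoded by Il6ra and Il11ra1) and then engage gp130, whereas leukaemia inhibitory factor (Lif) pairs gp130 with the LIF receptor chain (Lifr), and oncostatin M pairs it with the oncostatin M receptor chain (Osmr). Cardiotrophin-like cytokine factor 1 (Clcf1) acts through the ciliary neurotrophic factor receptor. The receptors activate Janus kinases, which phosphorylate STAT3, and STAT3 in turn induces Socs3, whose protein binds gp130 and damps the signal. In lung fibroblasts, IL-6 and IL-11 are known as products of activated cells and have been studied in lung inflammation and fibrosis. DKK1 is a secreted inhibitor of the Wnt pathway that acts on LRP5 and LRP6.

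With DKK1, transcripts of Il6, Il11 and Lif rose, by 2.59-fold, 2.45-fold and 1.57-fold in mean level, while Il6ra, Lifr and Stat3 stood at 0.975, 1.02 and 1.03 times their control means. Socs3 stood 1.5-fold higher, and Clcf1, Osmr and Il6st stood 1.17-fold, 1.18-fold and 1.07-fold higher. A gene is called here when its adjusted p is under 0.05, by edgeR's quasi-likelihood test with Benjamini-Hochberg adjustment over the 14635 genes tested. Of the 10 genes, 3 were called higher in the unpaired fit, against 0.697% of all genes tested. With the replicate number as a block, a fit that compares same-numbered libraries, 7 of 10 were called higher, against 4.96% of all genes, and the additional ones were Clcf1, Il6st, Osmr and Socs3. Every DKK1 library lay above every control library for 6 of the 10 genes (9.4% of all genes tested), and 7 of the 10 were higher with DKK1 in all 3 same-numbered pairs (22.2% of all genes tested). The median log2 fold change over the 10 genes was 0.23, and over all genes tested it was -0.000907. Because the choice of genes used this same contrast, nothing further is read from these shares.

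Upstream sequences are shown for the 4 genes with the largest differences, Il6, Il11, Lif and Socs3. They are RefSeq promoter windows on GRCm38.p6, written 5′ to 3′ on each gene's own strand and cut before the first base that GENCODE M21 annotates as exon. Il6 lies on the plus strand (chr5:30012864-30013113), Il11 on the minus strand (chr7:4778142-4778391, the downstream one of 2 annotated starts, which lies inside the gene and outside the exons of its longer transcripts), Lif on the plus strand (chr11:4257318-4257556) and Socs3 on the minus strand (chr11:117969452-117969616). The Socs3 window also lies inside its annotated gene (chr11:117966079-117970047). Capitals mark matches to any of 5 motifs, described after the sequences.
Il6: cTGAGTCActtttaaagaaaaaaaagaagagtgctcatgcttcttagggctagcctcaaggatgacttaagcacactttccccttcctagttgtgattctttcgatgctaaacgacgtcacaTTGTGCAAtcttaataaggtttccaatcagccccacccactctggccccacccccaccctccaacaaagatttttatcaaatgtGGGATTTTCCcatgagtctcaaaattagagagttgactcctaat
Il11: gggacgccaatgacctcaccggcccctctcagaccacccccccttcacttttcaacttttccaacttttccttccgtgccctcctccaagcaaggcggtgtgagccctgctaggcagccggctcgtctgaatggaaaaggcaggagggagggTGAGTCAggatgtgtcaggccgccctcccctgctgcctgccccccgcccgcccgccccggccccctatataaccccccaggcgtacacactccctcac
Lif: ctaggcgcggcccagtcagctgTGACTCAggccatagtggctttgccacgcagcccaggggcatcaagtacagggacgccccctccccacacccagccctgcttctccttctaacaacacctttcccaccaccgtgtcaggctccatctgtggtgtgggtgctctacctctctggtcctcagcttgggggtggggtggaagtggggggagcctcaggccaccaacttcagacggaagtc
Socs3: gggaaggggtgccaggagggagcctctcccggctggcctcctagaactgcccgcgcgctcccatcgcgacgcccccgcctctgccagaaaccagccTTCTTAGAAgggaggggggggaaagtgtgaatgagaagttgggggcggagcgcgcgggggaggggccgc

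Of the 10 genes, 9 matched an entry in the promoter table, all but Clcf1. The motifs were searched on both strands in the 250 bases before each start, and no 2 matches shared a base. The AP-1 motif TGANTCA matched 249 to 243 bases before the Il6 start, 98 to 92 before the Il11 start and 228 to 222 before the Lif start, and was present in 6.75% of the 32817 promoter windows of that length. Il6 also held an NF-kB motif (GGG, then 2 free bases, then TTTCC), 44 to 35 bases before its start, which 1.41% of windows held. A C/EBP motif, TTGCNNAA, lay 128 to 121 bases before the Il6 start on the opposite strand and was present in 9.57% of windows. The Socs3 window held the STAT motif TTCNNNGAA, 154 to 146 bases before its start, found in 7.01% of windows. The TCF/LEF motif CTTTGAT, the sequence bound by the Wnt pathway's own transcription factors, matched none of these windows and was held by 3.21% of all windows. The windows of Il6st, Il6ra, Lifr, Osmr and Stat3, and the upstream start of Il11, held no match to any of the 5. The Osmr window begins at a base annotated as exon, so none of it remains after the cut used for the printed sequences. A match describes only letters in the sequence.

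Libraries held 22565917 to 34727102 counts, and levels are given as CPM, counts per 1000000 counts of the library total. The lowest count of any of the 10 genes in any library was 259. Fibroblast markers (9 of 9 detected) summed to 13400 to 15100 CPM in control and 12600 to 14300 CPM in DKK1 libraries. With the block, 2 of them were called higher (Pdgfra and Dcn) and 5 lower (Col1a1, Col1a2, Pdgfrb, Thy1 and Vim). Of all genes tested, 4.96% were called higher and 4.46% lower with the block. Smooth muscle markers (5 of 5 detected) summed to 8970 to 10000 CPM in control and 7680 to 8970 CPM in DKK1 libraries. Myh11 was called lower without the block, and all 5 with it. Macrophage markers (8 of 8 detected) summed to 414 to 832 CPM in control and 453 to 866 CPM in DKK1 libraries, and in both groups replicate 3 was the highest. With the block, Adgre1 and Itgam were called higher and Csf1r and Mrc1 lower. Replicate 3 was also the highest in both groups for endothelial (5 of 5 detected, 20.2 to 61.7 CPM over all libraries), epithelial (6 of 6, 9.56 to 38.9 CPM) and mesothelial markers (4 of 4, 9.73 to 31.6 CPM). Neutrophil markers (3 of 4 detected) summed to 0.975 to 1.72 CPM in control and 2.68 to 4.03 CPM in DKK1 libraries. S100a8 was called higher with the block, while the defining marker Ly6g was at 0 in all 6 libraries. Lymphocyte markers (3 of 5 detected, Cd3e and Cd3g at 0) reached at most 0.75 CPM and mast cell markers (2 of 3 detected, Cpa3 at 0) at most 4.9 CPM. The part of smooth muscle, macrophage, neutrophil and other marker levels in the differences below was not tested. In these bulk libraries, fewer cells of a type and less RNA per cell cannot be told apart.

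The cytokines come first. Il6 (ENSMUSG00000025746, GRCm38 chr5:30013114-30019981), the founding cytokine of the family, measured 11.5, 11 and 14.1 CPM in control replicates 1 to 3 and 32.5, 29.3 and 32.7 CPM in the DKK1 replicates. The groups were far apart: the lowest DKK1 library stood well above the highest control library. The fit gave a log2 fold change of 1.37 (SE 0.09), and the log2 ratios within the 3 pairs were 1.5, 1.42 and 1.22. Il6 was called in all 6 fits that each left out 1 library.

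Il11 (ENSMUSG00000004371, chr7:4772373-4782859), which encodes interleukin-11, measured 16.8, 19.3 and 28.3 CPM in control and 49.2, 51.0 and 57.5 CPM in DKK1 libraries. The groups did not overlap, and replicate 3 was the highest in both. Among the 10 genes Il11 had the largest relative spread between control libraries, with a coefficient of variation of 28.3%. Il11 differed by 1.29 (SE 0.16) on the log2 scale, and by 1.31 (SE 0.07) with the replicate block. Within pairs the log2 ratios were 1.56, 1.40 and 1.02, so the pair with the highest control level had the smallest ratio. The call was lost without control replicate 2 and without DKK1 replicate 1, where the log2 fold changes were 1.22 and 1.33. In these fits calls over all genes fell from 131 to 36 and 44.

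Lif (ENSMUSG00000034394, chr11:4257557-4272514) measured 26.4, 24.0 and 23.0 CPM in control and 42.8, 36.4 and 35.9 CPM in DKK1 libraries. Replicate 1 was the highest in both groups, unlike Il6 and Il11, and the groups did not overlap. Its log2 fold change came to 0.64 (SE 0.08), with pair ratios of 0.70, 0.60 and 0.64 on the log2 scale. Lif lost its call when control replicate 2 was left out, at a log2 fold change of 0.63. Calls over all genes fell from 131 to 36 in that fit.

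Clcf1 (ENSMUSG00000040663, chr19:4214238-4223490) differed less. It measured 25.0, 27.9 and 31.5 CPM in control and 31.8, 32.9 and 34.1 CPM in DKK1 libraries, so that the lowest DKK1 library only just exceeded the highest control library. On the log2 scale the difference was 0.22 (SE 0.08), not called, and 0.23 (SE 0.05) with the block, called; DESeq2 with the block did not call it. Clcf1 shares exon bases with a readthrough gene model on the same strand, AC109138.7.

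**Figure D1:**
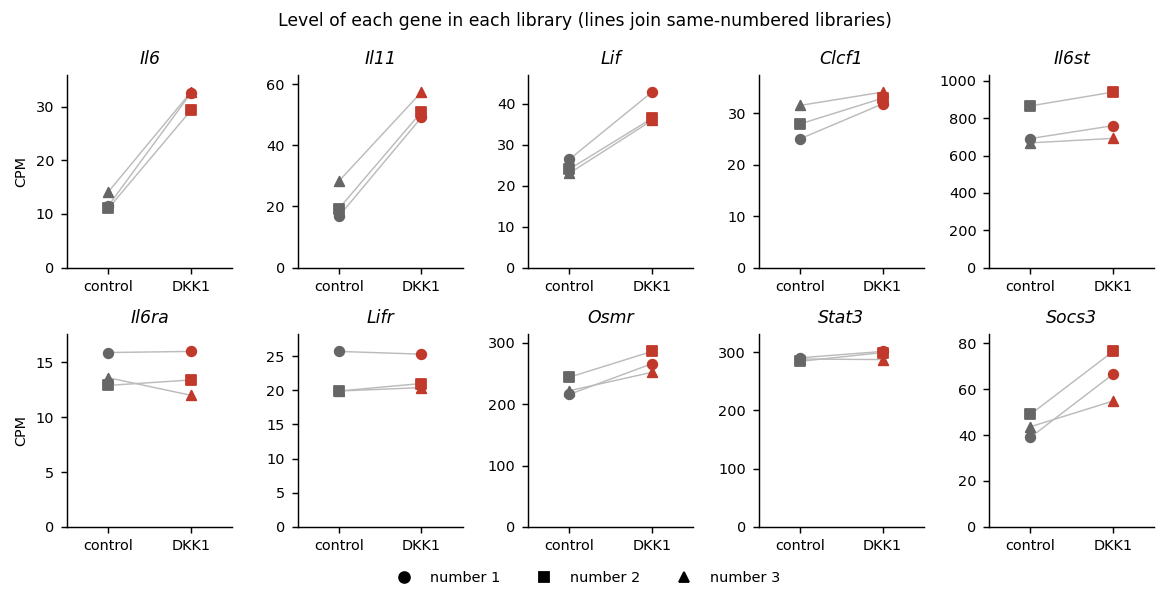
Level of each of the 10 genes in CPM (vertical axes start at 0) in the 3 control (grey) and 3 DKK1 (red) libraries, with marker shapes for the replicate number and lines joining libraries of the same number. Il6, Il11, Lif, Clcf1, Osmr and Socs3 show no overlap between the groups, while Il6st, Il6ra and Lifr differ more between replicate numbers than between treatments.

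Among the receptor chains, Osmr (ENSMUSG00000022146, chr15:6813577-6874969) was the one whose groups separated. Its levels were 216, 244 and 222 CPM in control and 266, 286 and 252 CPM in DKK1 libraries. Both fits gave a log2 fold change of 0.23, with an SE of 0.06 without the block, where it was not called, and 0.02 with the block, where it was. Pair ratios on the log2 scale were 0.30, 0.23 and 0.18.

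Il6st (ENSMUSG00000021756, chr13:112464070-112510086), the gene of the shared chain gp130, measured 691, 866 and 668 CPM in control and 760, 940 and 692 CPM in DKK1 libraries. The groups overlapped, and replicate 2 was the highest in both. Within each pair the DKK1 library was slightly higher, with log2 ratios of 0.14, 0.12 and 0.05. The log2 fold change of 0.10 had an SE of 0.13 without the block and 0.02 with it, and it was called only with the block. Without DKK1 replicate 2 the unpaired value was -0.041, so its sign rested on which library was left out.

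Il6ra (ENSMUSG00000027947, chr3:89864059-89913196), the chain that gives a cell its own IL-6 binding, measured 15.9, 12.9 and 13.6 CPM in control and 16.0, 13.4 and 12 CPM in DKK1 libraries. The groups overlapped and the pairs did not share a direction, with a log2 fold change of -0.04 (SE 0.12). Lifr (ENSMUSG00000054263, chr15:7090614-7197489) measured 25.7, 19.9 and 19.9 CPM in control and 25.3, 21 and 20.4 CPM in DKK1 libraries, with a log2 fold change of 0.02 (SE 0.12). For both genes replicate 1 was the highest in each group, and neither was called in either fit. The expected counts of Il6ra were not whole in 4 libraries, and the gene shares exon bases with Gm42809 on the opposite strand, which held at most 3.35 counts in any library.

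Stat3 (ENSMUSG00000004040, chr11:100885098-100939540), the transcription factor activated by these receptors, was the most even of the 10 genes. It measured 290, 284 and 288 CPM in control and 301, 299 and 287 CPM in DKK1 libraries, and its coefficient of variation was 1.09% in control and 2.56% in DKK1 libraries. Its log2 fold change of 0.04 (SE 0.03, and 0.02 with the block) was called in neither fit. Stat3 shares exon bases with Stat5a on the opposite strand, whose counts lay between 264 and 523, against 6522 or more for Stat3, and the strandedness of the counting is not given in the sources used here. Transcript level says nothing of the phosphorylation by which the STAT3 protein is switched on.

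Socs3 (ENSMUSG00000053113, chr11:117966079-117970047), the feedback inhibitor, measured 39.0, 49.0 and 43.6 CPM in control and 66.5, 76.4 and 54.8 CPM in DKK1 libraries. The groups did not overlap, and within each pair Socs3 was higher with DKK1, by log2 ratios of 0.77, 0.64 and 0.33. The log2 fold change was 0.58 (SE 0.12) without the block, not called, and 0.58 (SE 0.06) with it, called. Replicate 2 was the highest in both groups. Without DKK1 replicate 3, the lowest of the DKK1 libraries, the unpaired log2 fold change was 0.70 and Socs3 was called.

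**Figure D2:**
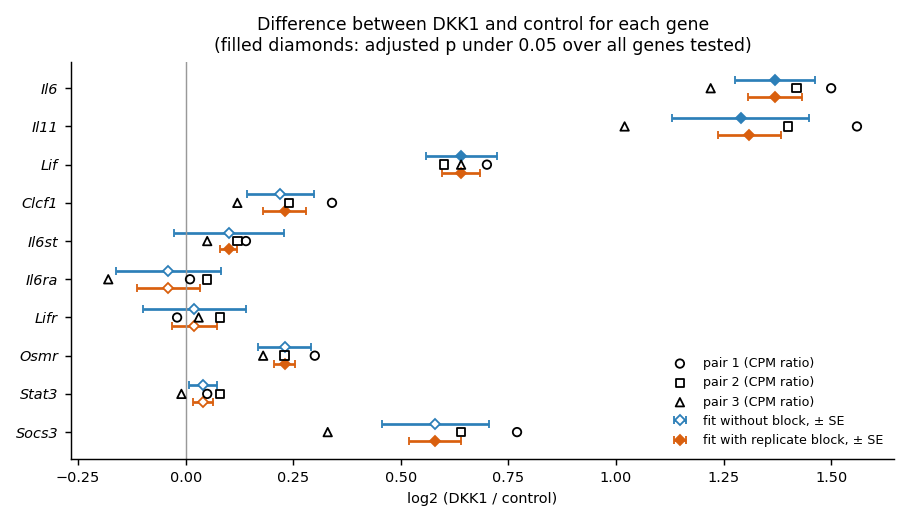
Difference between DKK1 and control for each gene on the log2 scale: open black symbols are the CPM ratios of the 3 same-numbered pairs, and diamonds with bars are the fitted values ± SE without (blue) and with (orange) the replicate block, filled where called. Il6 and Il11 lie above 1, Lif and Socs3 near 0.6, Clcf1 and Osmr near 0.2, and Il6ra, Lifr and Stat3 near 0.

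Pair 3 had the smallest log2 ratio of the 3 pairs for Il6, Il11, Clcf1, Il6st, Osmr, Socs3, Il6ra and Stat3. It is also the pair with the highest macrophage, endothelial, epithelial and mesothelial marker levels, and whether these bear on the ratios was not tested. With both libraries numbered 3 left out, the log2 fold changes were 1.45 for Il6, 1.46 for Il11, 0.65 for Lif, 0.69 for Socs3, 0.28 for Clcf1 and 0.26 for Osmr, so each was as large as or larger than with all libraries. Of the 10 genes, 4 were then called without the block (Il6, Il11, Lif and Socs3) and 7 with it, where 149 and 1060 genes were called over the whole table.

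Levels of different genes were compared per length, as CPM per kb of annotated exon sequence (the union of a gene's exons in GENCODE M21). In control cells Il6st was the highest of the 10 at 66.8 ± 9.75 CPM per kb (SD, n = 3), above 95.6% of the genes tested. Stat3 followed at 30.1 ± 0.328, Osmr at 18.8 ± 1.22, Socs3 at 15.2 ± 1.73, Il11 at 10.3 ± 2.92, Clcf1 at 7.39 ± 0.847, Lif at 5.63 ± 0.393 and Il6 at 5.01 ± 0.688 CPM per kb. The IL-6 and LIF receptor chains came last, Lifr at 2.03 ± 0.310 and Il6ra at 1.64 ± 0.186 CPM per kb, the latter above only 30.8% of the genes tested. Neighbours in this order whose library ranges overlapped were Socs3 and Il11, Il11 and Clcf1, and Lif and Il6, so these pairs do not differ beyond the spread over libraries. Within the same library, however, Socs3 stood above Il11 and Il11 above Clcf1 in 3 of 3 control libraries, and Lif above Il6 in 2 of 3.

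After DKK1 the order in the middle changed. Il11 stood at 25.3 ± 2.10 CPM per kb (SD, n = 3), next to Socs3 at 22.8 ± 3.73 and Osmr at 22.1 ± 1.43, and the ranges of Il11 and Socs3, and of Socs3 and Osmr, overlapped. Il6, at 13 ± 0.787 CPM per kb, moved above Lif at 8.82 ± 0.893 and Clcf1 at 8.66 ± 0.308. The ranges of Lif and Clcf1 overlapped, and Lif stood above Clcf1 in only 1 of the 3 DKK1 libraries. The share of tested genes below Il6 went from 52.6% to 75%, and below Il11 from 70% to 86.5%. Il6st, Stat3, Lifr and Il6ra kept the first 2 and last 2 places. With the longest transcript in place of the exon union, the control order was the same, but the control levels of Osmr and Stat3 became 41.4 and 47.5 CPM per kb. On that scale the order after DKK1 differed: Osmr, at 48.8 CPM per kb, came next to Stat3 at 48.9, above Il11 at 27 and Socs3 at 25.8.

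**Figure D3:**
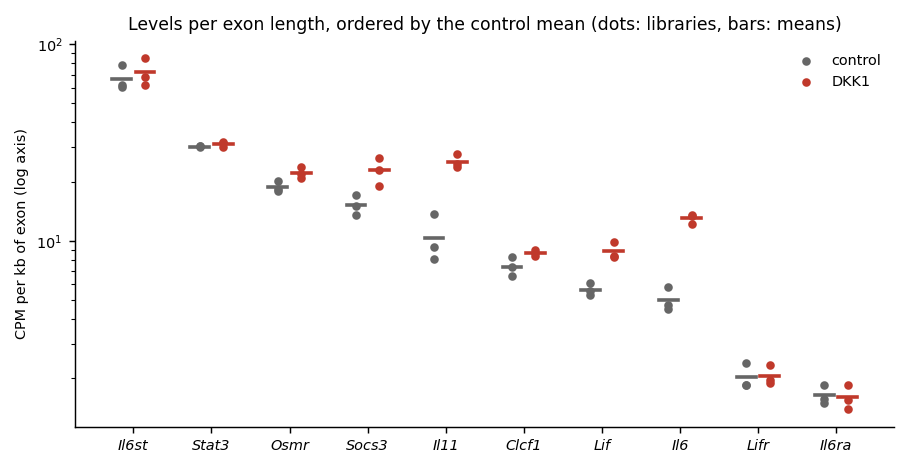
Levels in CPM per kb of exon on a logarithmic axis, with genes ordered by their control mean; dots are the 3 libraries of each group and short bars are group means. Il6st stands highest and Lifr and Il6ra lowest in both groups, while Il11 and Il6 change their place with DKK1.

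The genes whose pattern over the 6 libraries was closest to that of each cytokine and of Socs3 were sought among the 12997 genes that averaged 1 CPM or more. The measure was the root mean square (RMS) difference of log2 CPM after centring each gene on its mean. For a given cytokine or Socs3, a smaller value means a closer pattern. Values are not scaled to the size of a gene's differences, so those of different family genes are not comparable. The measure includes the difference between DKK1 and control with which the family genes were chosen, and is given as a description. With the 10 family genes themselves left out of the ranking, Il6 was closest to Liph (0.13), Cp, which encodes ceruloplasmin (0.15), and Gm12840 (0.16). Il11 was closest to Aoah (0.19), Rpph1 (0.20) and S100a8 (0.21), of which Aoah averaged 0.643 CPM in control and reached the 1 CPM limit through its DKK1 level of 1.83 CPM. Lif was closest to Tmem176a (0.043), Fam110c (0.047) and Tmem176b (0.060), and Clcf1 to Tapbpl (0.028), Ddx59 (0.031) and Mrpl1 (0.037). Socs3 was closest to Nr4a1, an immediate early transcription factor (0.059), Nt5e (0.063) and C1ra, a complement protease (0.074). Within the family itself, Il6 and Il11 were nearest to each other (0.153), behind Liph and Cp for Il6, and the nearest family member of both Clcf1 and Socs3 was Osmr (0.123 and 0.198).

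The other cytokines and receptor chains of the family did not pass the test. Of 13 listed genes, 6 were expressed enough to test, and 0 were called by edgeR without or with the block or by DESeq2, with 0 at an unadjusted p under 0.05 in edgeR. Their median log2 fold change was 0.00904. Il11ra1, the IL-11 receptor chain, measured 26.4 ± 2.87 CPM in control and 28.5 ± 1.81 CPM with DKK1 (SD, n = 3 each; edgeR adjusted p = 0.75). Cntfr, the receptor chain used by Clcf1, measured 3.31 ± 0.585 and 3.35 ± 0.306 CPM, and cardiotrophin-1 (Ctf1) 2.67 ± 0.397 and 2.66 ± 0.392 CPM. Oncostatin M (Osm), the ligand of the Osmr chain, had between 3 and 5 counts in every library, at the edge of the 3 counts read here as signal, and was not tested. The other genes not tested, Ctf2, Ebi3, Il27, Il31, Il11ra2 and Il31ra, reached at most 0.434 CPM in any library.

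Among 28 listed kinases, other STATs, inhibitors and sheddases of the pathway, 27 were tested. Without the block 0 were called (edgeR, 3 at an unadjusted p under 0.05; DESeq2 called 0), and with the block 3 were, 2 higher (7.41% of the list, against 4.96% of all genes tested) and 1 lower (4.46% of all genes tested were called lower). DESeq2 with the replicate block called 0 of the list. The median log2 fold change of the list was 0.025. Socs1, a relative of Socs3 that inhibits Janus kinases, measured 4.66 ± 0.382 CPM in control and 6.41 ± 1.02 CPM with DKK1 (SD, n = 3 each). This is 0.46 on the log2 scale (edgeR adjusted p = 0.27, SE 0.15; in the paired fit 0.0185, SE 0.11), and every DKK1 library lay above every control library. Ptpn2, a phosphatase that acts on Janus kinases and STATs, went from 22 ± 0.990 to 25.9 ± 1.54 CPM (log2 fold change 0.23, edgeR adjusted p = 0.211; with the block 0.0094). Socs2, known mainly as a brake on growth hormone signalling, went from 71.4 ± 10.8 to 63.9 ± 9.16 CPM (log2 fold change -0.16, edgeR adjusted p = 0.719; with the block -0.17, adjusted p = 0.00877). With both libraries numbered 3 left out, the paired fit called Socs1 and Socs2 but not Ptpn2.

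The Janus kinases and the nearest signalling partners were not called in either fit. Jak1 measured 296 ± 4.01 CPM in control and 305 ± 3.84 CPM with DKK1, Jak2 154 ± 14.6 and 160 ± 12.3 CPM, and Tyk2 24.4 ± 0.664 and 22.3 ± 0.350 CPM (SD, n = 3 each). Ptpn11, the phosphatase SHP2 that docks on gp130 at the same site as SOCS3, measured 327 ± 6.42 and 317 ± 3.91 CPM. Adam17, the protease that sheds the IL-6 receptor from the cell surface, measured 66.1 ± 1.44 and 69.9 ± 1.58 CPM. In edgeR the lowest adjusted p-value among these 5 genes was that of Tyk2, 0.352 unpaired and 0.116 with the block.

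The last list held 44 genes known to be induced by STAT3 or by IL-6-type cytokines in some cell type, of which 32 were tested; many of them respond to NF-kB, AP-1 or C/EBP factors as well. Of the 32, 6 were called higher and 0 lower (18.8% against 0.697% of all genes), and with the block 19 were called higher and 0 lower (59.4% against 4.96% of all genes). The median log2 fold change was 0.29, and 30 of the 32 were higher. Of the 6, Lcn2 and Steap4 passed the low-count filter through their DKK1 libraries, so their calls are not counted as support; with 10 counts required in each library they were not tested and 4 genes were called. The values of Lcn2, Saa3, Steap4 and Timp1 were known when the list was drawn up. Without these 4, 3 of 28 were called higher, and 15 of 28 with the block, with a median of 0.24. The list was drawn up with earlier results of these data known. Leaving out these 4 does not make it independent, and its shares are a description. The count without the block was 2 when control replicate 1, control replicate 2 or DKK1 replicate 2 was left out, 3 without DKK1 replicate 1, 6 without control replicate 3 and 8 without DKK1 replicate 3. Calls over all genes moved with it, from 131 to 51, 36 and 57 in the first 3 of these fits, 44 without DKK1 replicate 1, 107 without control replicate 3 and 139 without DKK1 replicate 3. With both libraries numbered 3 left out it was 7, and with the block 19 were then called higher and 1, Ccnd1, lower. Over all genes those fits called 149 genes (119 higher), and with the block 1060 (593 higher and 467 lower). In the fits that each left out 1 library, Hif1a was called in all 6 and Steap4 in all but that without control replicate 2. Timp1 lost its call without control replicate 1, control replicate 2 or DKK1 replicate 2. Bcl3 kept its call only without control replicate 2 or DKK1 replicate 3, Lcn2 only without control or DKK1 replicate 3, and Junb only without DKK1 replicate 3. Their log2 fold changes over the 6 fits ran from 0.68 to 0.92 for Bcl3, 2.82 to 3.65 for Lcn2 and 0.35 to 0.45 for Junb.

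Of these genes, Lcn2, which encodes the iron-carrier protein lipocalin-2, differed most in the unpaired fit of all libraries. It averaged 0.256 ± 0.156 CPM in control and 2.56 ± 1.24 CPM with DKK1 (SD, n = 3 each; log2 fold change 3.26, edgeR adjusted p = 0.0255). The control libraries held 2, 8 and 9 counts of Lcn2, the lowest under the 3 counts read as signal, so that the size of its fold change is uncertain. The acute-phase gene Saa3 measured 0.931, 0.566 and 4.02 CPM in control and 12.5, 7.23 and 11.6 CPM with DKK1 (log2 fold change 2.54, edgeR adjusted p = 0.0922; with the block 2.60, adjusted p = 5e-05). Without control replicate 3, the highest control library, its unpaired log2 fold change was 3.81, above the 3.65 of Lcn2, and Saa3 was called. Without control replicate 2 it was 2.07 and not called. Steap4, a metalloreductase gene, rose by 2.26 on the log2 scale (edgeR adjusted p = 0.0076), from 8, 16 and 16 counts in the control libraries. Both Lcn2 and Steap4 were tested because of their level in the DKK1 libraries, and both values were known beforehand. Haptoglobin (Hp) went from 1.47 ± 0.836 to 5.36 ± 1.58 CPM, which is 1.87 on the log2 scale (edgeR adjusted p = 0.0678; with the block 0.000198), and it too was called without the block when control replicate 3 was left out, at 2.40. These 4 genes were at low levels in control cells, under 2 CPM on average.

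Bcl3, Junb, Fos and Cebpd, 4 transcriptional regulators of the list, are described next. Bcl3, an NF-kB cofactor, rose from 12.2 ± 2.04 to 21.4 ± 2.09 CPM (SD, n = 3 each; log2 fold change 0.80, edgeR adjusted p = 0.0281). Junb, an AP-1 subunit, rose from 173 ± 9.42 to 231 ± 15.7 CPM (log2 fold change 0.41, edgeR adjusted p = 0.02). Fos and Cebpd measured 27.6 ± 4.06 and 63.7 ± 5.97 CPM in control and 45.9 ± 8.99 and 88.8 ± 9.40 CPM with DKK1. In edgeR they were called with the block, at log2 fold changes of 0.73 and 0.48, and not without it, while DESeq2 and edgeR with no low-count filter called both without the block. The remaining genes called without the block, Hif1a (log2 fold change 0.34, edgeR adjusted p = 0.00387) and Timp1 (0.34, adjusted p = 0.0145), are named because they complete that count. The 12 genes not tested included the liver acute-phase genes Crp, Fga, Fgb, Fgg, Orm1, Saa1 and Saa2, and none of the 12 exceeded 0.454 CPM.

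**Figure D4:**
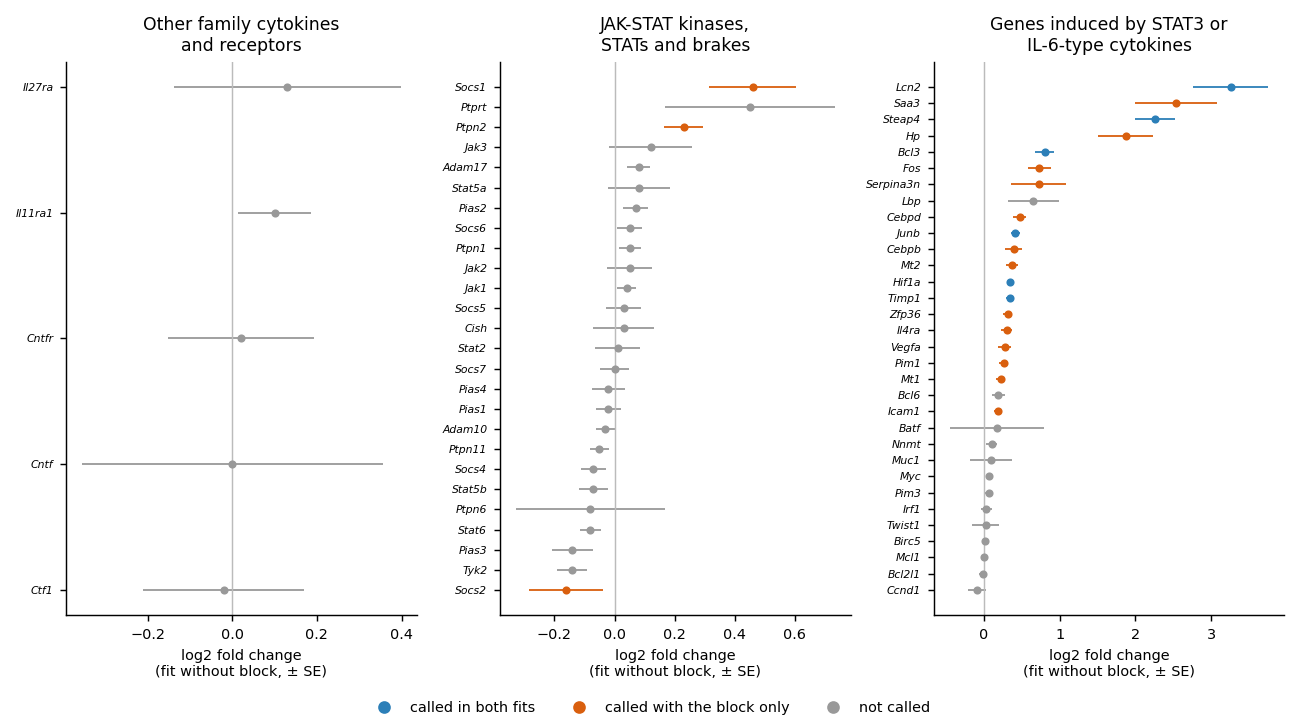
Log2 fold change (DKK1 over control, unpaired edgeR fit, bars ± SE) of tested genes in 3 lists: other family cytokines and receptors (5 of 6 drawn), JAK-STAT kinases, STATs and brakes (26 of 27 drawn) and genes known to be induced by STAT3 or IL-6-type cytokines (32 genes). Blue genes were called in both fits, orange genes with the replicate block only; the horizontal scales differ, and the third list is the one with blue points.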

How the data were processed

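RNA sequencing values of 6 samples were used. The deposited table holds RSEM expected counts per gene, per the file name and header. The submitters' processing notes list STAR, RSEM and edgeR 4.2.1 and the builds GRCm38 and mm10. The annotation release and strandedness are not given in the sources used here. Symbols were found for 45143 of 45706 identifiers (98.8%), and 98.7% of the transcript identifiers occur in GENCODE M21.

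Rounded expected counts went into edgeR 4.0.16 under R 4.3.3 (filterByExpr with a minimum count of 10, TMM, quasi-likelihood F-test, two-sided, Benjamini-Hochberg), with the group as the only term. An SE is the log2 fold change without its sign over the root of the F statistic. The fit was tested on simulated data first. Each library's floor of 3 counts is 0.0864 to 0.133 CPM and covers counting error only, since PCR reads that carry no molecular identifier are not independent.

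The replicate numbers come from the sample titles. Deviations from the group means correlated between same-numbered samples at 0.27, 0.23 and 0.41 across genes, and at -0.28 to 0.075 between the others. Positive values for same-numbered samples force the others lower, since deviations within a group balance out. On these values the numbers were taken to pair the samples. The block lowered the common biological coefficient of variation from 6.99% to 2.3%.

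Members and lists were chosen with earlier results of these data known. Named genes were the 10 members, 13 pathway genes listed by name (2 others are not reported here), up to 6 genes per list with the largest change among those called, and the 3 nearest genes by pattern. Alternatives were other normalizations, filters, DESeq2 1.42.0, equal depth, the block, and leaving out libraries.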

Additional observations from a re-analysis of the deposited data

How the results depend on the processing

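Of the 10 family genes, 3 were called without the replicate block, and the count stayed at 3 with equal depth, with size factors from DESeq2, with plain library totals, and with 10 counts required in each sample. It was 5 without a low-count filter and 5 with the DESeq2 test, both adding Osmr and Socs3, 7 with the replicate block and with the replicate block at equal depth, and 1 to 4 when single libraries were left out. Over all genes, 131 calls became 1379 with the replicate block, 1398 with the block at equal depth, 329 without a filter, 291 with the DESeq2 test, and 36 to 139 with single libraries left out. The JAK-STAT list went from 0 to 3 calls with the block, also at equal depth. The STAT3-induced list went from 6 to 19 with the block (also 19 at equal depth), 16 without a filter, 14 with the DESeq2 test, 4 with 10 counts required in each sample, which left Lcn2 and Steap4 untested, and 2 to 8 with single libraries left out.

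Chosen after seeing the data, DESeq2 with the replicate block called 551 genes, 6 of the family (all of the block's 7 but Clcf1), 0 of the JAK-STAT list and 17 of the STAT3-induced list. The block with number 3 of both groups left out called 1060, 7, 2 and 20 (19 higher, 1 lower), in the same order. Other cytokines and receptors had 0 calls in each of these fits. The share of calls that were higher went from 102 of 131 to 726 of 1379 with the block. Signs changed for genes near 0 that were not called without the block (Il6st was called with it). Ctf1 was 0.043 at equal depth and 0.040 with the block as well, and Cntfr -0.0039 with number 3 left out. With single libraries left out, log2 fold changes ran from -0.13 to 0.10 for Ctf1, -0.092 to 0.16 for Cntfr, -0.018 to 0.13 for Jak2, -0.16 to 0.059 for Il6ra, -0.081 to 0.15 for Lifr and -0.041 to 0.23 for Il6st; Il6ra was 0.023 with number 3 left out. Il6, Il11, Lif, Clcf1, Osmr, Stat3 and Socs3 were positive in all 18 fits. The causes were not tested.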
